A study of Mus musculus with 6 samples.

Results

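The genes described here act on the fluoropyrimidine 5-fluorouracil, the drug usually paired with oxaliplatin against colorectal cancer, and supply the cell with deoxynucleotides. They are the 9 rows of the read count table whose symbol is TYMS, DPYD, TYMP, UPP1, UMPS, TK1, RRM1, RRM2 or RRM2B, out of 31456 rows. All 9 passed the filter on low counts and were among the 16605 genes tested. Bulk RNA was sequenced from HCT116, an established human colorectal carcinoma line, in a parental form (3 libraries) and a form labelled resistant (3 libraries). From the series text the resistance is to oxaliplatin, a platinum drug that forms DNA adducts. The labels give no drug dose, time in drug or route by which the resistant form was made, and they do not say whether it is a clone. They give no sign that either form was exposed to 5-fluorouracil. The labels also do not say whether the libraries of a form came from separate cultures, so p-values reflect only how far these libraries differ, which may be technical.

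As background, 5-fluorouracil is a prodrug. UMPS, TYMP, UPP1 and TK1 encode enzymes that turn it into fluorinated nucleotides. DPYD encodes the enzyme that begins its breakdown, and TYMS encodes thymidylate synthase, the enzyme that the fluorinated deoxynucleotide blocks. Thymidylate synthase makes dTMP from dUMP, and ribonucleotide reductase makes deoxynucleotides from ribonucleotides. Ribonucleotide reductase pairs the large subunit RRM1 with a small subunit, which is RRM2 in S phase or RRM2B, a p53-induced form that also serves cells outside S phase. TYMS, TK1 and RRM2 are E2F target genes and their mRNAs peak around S phase in cycling cells.

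The total count was 20246878 to 32138423 per library, and 3 counts, taken as the floor of detection, were 0.0975 to 0.153 CPM, reads scaled to library size (here after TMM normalization). The floors cover counting error only, whereas the 95% intervals of fold changes below come from the edgeR fit and include the spread between libraries. Parental replicate 2 stood apart within its group. Counting noise alone gives a chi-square per gene near 1. The pairs that held this library gave 11.5 and 11.1, and parental replicates 1 and 3 gave 1.99. The resistant pairs gave 4.16, 2.66 and 4.51, so spread beyond counting noise was present in both groups. The labelled cell type was checked against markers. Of 8 epithelial markers 7 exceeded 1 CPM, with a summed level of 2859 to 3251 CPM in parental and 2640 to 2788 CPM in resistant libraries, and VIL1 had at most 4 counts. Of 8 fibroblast markers only COL1A1 exceeded 1 CPM, and the list summed to 22.6 to 26.1 CPM in parental and 39.3 to 45.0 CPM in resistant libraries. Of 6 leukocyte markers only CD68 did, with list sums of 12.5 to 13.2 and 15.7 to 18.3 CPM, while PTPRC had at most 2 counts. The part of these markers in the results was not tested.

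The comparison asked which of these genes differ in mRNA level between the resistant and the parental form. UPP1, the uridine phosphorylase gene, was 3.48-fold higher in the resistant cells and RRM1 was 1.11-fold higher. TYMS was 1.24-fold, RRM2B 1.38-fold and UMPS 1.14-fold lower. RRM2, TK1, TYMP and DPYD did not pass the test. Of the 9 genes edgeR's quasi-likelihood test called 5 at an adjusted p of less than 0.05, 2 higher and 3 lower. Over all tested genes 53.8% were called, 27.3% higher and 26.5% lower, so the share of called genes among the 9 (55.6%) was near the background. The median absolute log2 fold change of all tested genes was 0.27, and 8 of the 9 genes had one under 0.5. The CPM of the groups did not overlap for 7 of the 9 genes, against 61.2% of all tested genes. With library sizes alone in place of TMM, the called genes of the whole table were 65.3% higher against 50.8% in the TMM fit, and the 9 genes held 2 higher and 2 lower calls.

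**Figure D1:**
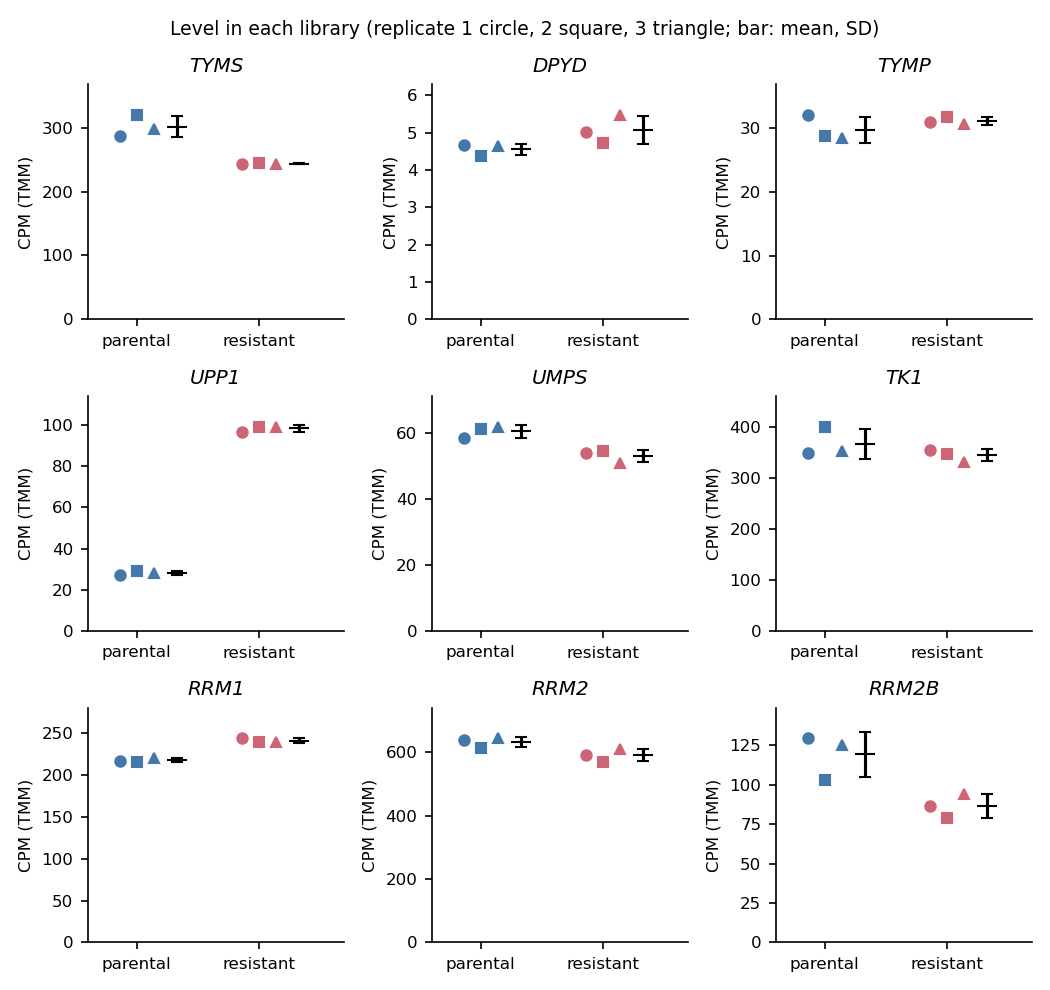
Level of each of the 9 genes in TMM-normalised CPM (vertical axis, from 0, own scale per gene) in the 3 parental (blue) and 3 resistant (red) libraries, with the mean and SD as a bar beside each group. UPP1 sits between 27.3 and 29.2 CPM in the parental libraries and between 96.7 and 99.3 CPM in the resistant ones, while the groups overlap for TK1 and TYMP.

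**Figure D2:**
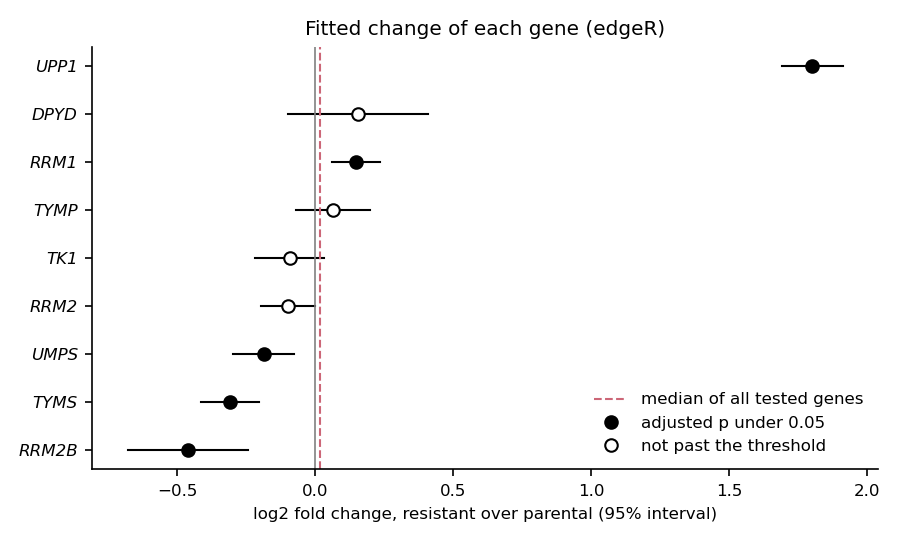
Fitted log2 fold change of each gene, resistant over parental (horizontal axis), with its 95% interval as a line, filled circles for an adjusted p under 0.05 and the median of all tested genes as a dashed line. UPP1 lies at 1.80, and the other 8 genes lie between -0.46 and 0.15.

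The drug target came first. TYMS (ENSG00000176890.16) had 286, 320 and 299 CPM in parental replicates 1, 2 and 3 and 243, 245 and 243 CPM in resistant replicates 1, 2 and 3. Every resistant library was lower than every parental library. The spread was 5.58% of the mean in the parental and 0.42% in the resistant libraries. Counting error alone was up to 1.31% of a library's value, so the closeness of the resistant libraries is not read as a trait of that form. Means were 301 ± 16.8 CPM for parental and 243 ± 1.02 CPM for resistant cells (SD, n = 3). The log2 fold change was -0.31 ± 0.05 (SE), with a 95% interval from -0.41 to -0.20 and an edgeR adjusted p of 1.9e-04. Parental replicate 2 was the highest library, and without it the log2 fold change was -0.26 (edgeR adjusted p = 1.3e-05). The call held in all 16 alternatives, with log2 fold changes from -0.35 to -0.21.

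TYMS shares its locus with ENOSF1, whose transcripts run antisense to it, and with TYMSOS, a divergent transcript. The sources used here do not say whether counting used strand, so reads from overlapping stretches cannot be told apart. ENOSF1 averaged 71.6 ± 3.38 CPM in parental and 69.9 ± 1.60 CPM in resistant libraries (SD, n = 3), with a log2 fold change of -0.03 (edgeR adjusted p = 0.60) that was 0.06 with library sizes alone. TYMSOS had 0.864 ± 0.133 and 0.992 ± 0.188 CPM and did not pass the test (edgeR adjusted p = 0.54).

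The mRNAs for the enzymes that activate the drug moved unequally. UPP1 (ENSG00000183696.14), which interconverts uracil and uridine, had 27.3, 29.2 and 28.2 CPM in the parental libraries and 96.7, 99.3 and 99.3 CPM in the resistant libraries. The gap between the groups was far wider than the spread within either. The mean rose from 28.2 ± 0.957 CPM to 98.4 ± 1.51 CPM (SD, n = 3). The log2 fold change was 1.80 ± 0.05 (SE), with a 95% interval from 1.69 to 1.91 and an edgeR adjusted p of 1.1e-10. By rise UPP1 stood at place 333 of 16605 tested genes, and 5.58% of tested genes were called higher with at least a 2-fold change. The call held in all 16 alternatives, with log2 fold changes from 1.77 to 2.05.

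TYMP (ENSG00000025708.14), thymidine phosphorylase, can attach deoxyribose to 5-fluorouracil. It had 32, 28.7 and 28.4 CPM in the parental libraries and 30.9, 31.7 and 30.6 CPM in the resistant ones. The groups overlapped, since parental replicate 1 was the highest of the 6. The log2 fold change was 0.06 ± 0.06 (SE), with a 95% interval from -0.07 to 0.20 and an edgeR adjusted p of 0.40. On the authors' FPKM values (a scale per gene length, described below) the difference passed the threshold in 2 of 3 limma fits, with a log2 difference of 0.28 (limma adjusted p = 0.025) with a pseudocount of 1 and 0.29 (limma adjusted p = 0.024) with 0.1. The adjusted p over all alternatives ran from 0.024 to 0.78. TYMP shares its locus with SCO2, a mitochondrial copper chaperone gene, and adjoins ODF3B. SCO2 (ENSG00000130489.14) was 1.28-fold higher (log2 fold change 0.36, edgeR adjusted p = 0.0030), and a further row under that symbol averaged 0.934 CPM in parental and 1.11 CPM in resistant libraries. ODF3B had a log2 fold change of 0.61 (edgeR adjusted p = 0.022) on a parental mean of 1.81 CPM, and lost the call without parental replicate 2 (0.50, edgeR adjusted p = 0.058), as it did without parental replicate 3 and without resistant replicates 1 and 3. Reads cannot be assigned between these genes where they overlap.

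UMPS (ENSG00000114491.14) encodes uridine monophosphate synthase, which joins 5-fluorouracil to phosphoribose directly and makes UMP in pyrimidine synthesis. It had 58.2, 61.1 and 61.8 CPM in the parental libraries and 53.8, 54.3 and 50.9 CPM in the resistant ones. The groups did not overlap and the difference was small. The mean was 60.4 ± 1.88 against 53 ± 1.82 CPM (SD, n = 3), with a log2 fold change of -0.19 ± 0.05 (SE), a 95% interval from -0.30 to -0.08 and an edgeR adjusted p of 0.0086. With library sizes alone the log2 fold change was -0.09 (edgeR adjusted p = 0.14), and on FPKM with a pseudocount of 1 it was -0.48 (limma adjusted p = 0.017). The size of the UMPS difference therefore depended on the scale used.

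TK1 (ENSG00000167900.12), the cytosolic thymidine kinase of S phase, phosphorylates thymidine and fluorodeoxyuridine. It had 347, 399.8 and 351 CPM in the parental libraries and 353, 347 and 331 CPM in the resistant ones. The groups overlapped, and parental replicate 2 was the highest library. The log2 fold change was -0.09 ± 0.06 (SE), with a 95% interval from -0.22 to 0.03 and an edgeR adjusted p of 0.19. Without parental replicate 2 it was -0.02 (edgeR adjusted p = 0.61), and with library sizes alone it was 0.0019 (edgeR adjusted p = 0.98). The adjoining gene AFMID was 1.20-fold lower (edgeR adjusted p = 0.0043), though not past the threshold on unfiltered FPKM (limma adjusted p = 0.11).

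The mRNA for the first enzyme of breakdown was low in both forms. DPYD (ENSG00000188641.13), dihydropyrimidine dehydrogenase, had 124, 135 and 91 counts in the parental and 125, 138 and 142 counts in the resistant libraries. These counts corresponded to 4.66, 4.39 and 4.63 CPM and to 5.02, 4.72 and 5.47 CPM. The lowest resistant library was only just above the highest parental one. Counting error alone was up to 10.5% of a library's value. The log2 fold change was 0.15 ± 0.12 (SE), with a 95% interval from -0.10 to 0.41 and an edgeR adjusted p of 0.28, so a difference was not detectable at this depth. DPYS and UPB1, which encode the next enzymes of the breakdown, had too few counts for the test. DPYS had 0 counts over the parental and 2 over the resistant libraries, and UPB1 had 12 and 22.

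The mRNAs for the subunits of ribonucleotide reductase did not move together. RRM1 (ENSG00000167325.15), the large subunit, had 217, 216 and 221 CPM in the parental libraries and 244, 239.9 and 239 CPM in the resistant ones. The groups did not overlap and the spread within each was about 1% of the mean, where counting error alone was up to 1.52%. The mean rose from 218 ± 2.39 to 241 ± 2.62 CPM (SD, n = 3), with a log2 fold change of 0.15 ± 0.04 (SE), a 95% interval from 0.06 to 0.23 and an edgeR adjusted p of 0.0087. With no filter on low counts the log2 fold change was 0.13 and the edgeR adjusted p 0.062. RRM1-AS1, an antisense transcript, had at most 1 count in a library.

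RRM2 (ENSG00000171848.15), the S-phase small subunit, had 640.1, 615 and 645 CPM in the parental libraries and 593, 571 and 611 CPM in the resistant ones. The highest resistant library was just below the lowest parental library. The log2 fold change was -0.10 ± 0.04 (SE), with a 95% interval from -0.20 to -0.0021 and an edgeR adjusted p of 0.079. The adjusted p was 0.012 in edgeR without parental replicate 2 (log2 fold change -0.12) and 0.023 in DESeq2, and with library sizes alone the log2 fold change was -0.0050 (edgeR adjusted p = 0.93). RRM2 was thus on either side of the threshold under these settings. RRM2P3, a pseudogene of RRM2 with a row of its own, had at most 2 counts.

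RRM2B (ENSG00000048392.11), the p53-induced small subunit, had 129.5, 103 and 125 CPM in the parental libraries and 86.4, 78.8 and 94.3 CPM in the resistant ones. Every resistant library was lower than every parental library, and the spread within each group was the widest of the 9 genes, at 12.0% and 8.97% of the mean. The mean fell from 119 ± 14.3 to 86.5 ± 7.76 CPM (SD, n = 3), with a log2 fold change of -0.46 ± 0.09 (SE), a 95% interval from -0.68 to -0.25 and an edgeR adjusted p of 0.0032. Parental replicate 2 was the lowest parental library, and without it the log2 fold change was -0.56 (edgeR adjusted p = 6.9e-05). On FPKM with no filter the log2 difference was -0.37 and the limma adjusted p 0.064.

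Ratios of the genes within a library do not depend on scaling between libraries. For 7 pairs of genes the ratio of read counts was taken in each library and compared by an exact two-sided permutation test, for which 3 against 3 libraries cannot give a p below 0.10. All 7 pairs had groups that did not overlap and an exact p of 0.10, also 0.10 after Benjamini-Hochberg adjustment over the 7. The pairs share genes, so they are not 7 separate results. The share of other gene pairs without overlap was not taken, and 61.2% of single tested genes did not overlap. The ratios show unequal change within a pair and not which gene changed.

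RRM2 counts per RRM1 count were 2.95, 2.84 and 2.92 in the parental and 2.43, 2.38 and 2.55 in the resistant libraries, a log2 difference of -0.24. RRM2B counts per RRM1 count were 0.597, 0.476 and 0.568 against 0.354, 0.328 and 0.394, a log2 difference of -0.61. RRM2B counts per RRM2 count were 0.202, 0.168 and 0.194 against 0.146, 0.138 and 0.154, a log2 difference of -0.36. Relative to the large subunit, both small subunit mRNAs were thus lower in each resistant library than in any parental library, and RRM2B was lower by more.

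TYMS counts per TK1 count were 0.824, 0.799 and 0.849 in the parental and 0.687, 0.706 and 0.735 in the resistant libraries, a log2 difference of -0.22. These genes supply dTMP by synthesis and by salvage. TYMP counts per UPP1 count were 1.17, 0.983 and 1.01 against 0.320, 0.320 and 0.308, a log2 difference of -1.73. Counts are not scaled to gene length, so these ratios do not rank the phosphorylase genes by level. UPP1 counts per UMPS count went from 0.469, 0.479 and 0.456 to 1.80, 1.83 and 1.95, a log2 difference of 1.99. DPYD counts per TYMS count were below 0.03 in every library, with a log2 difference of 0.46.

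**Figure D3:**
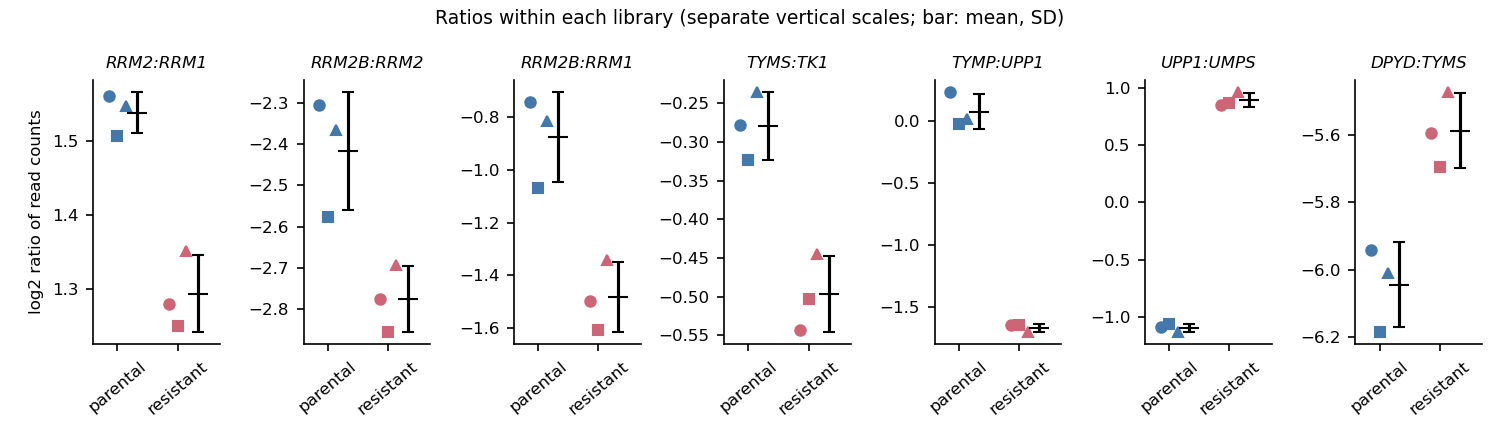
Log2 ratio of read counts of 7 pairs of genes within each library (vertical axis, own scale per pair) for the 3 parental (blue) and 3 resistant (red) libraries, with the mean and SD as a bar. In each pair the groups do not overlap, and the largest difference is that of UPP1 to UMPS, at 1.99.

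Levels of different genes were compared only on the authors' FPKM, taken as scaled to gene length, although the header of that table names no unit. The FPKM did not follow the counts by a fixed factor per gene. For RRM2, parental replicate 2 was the lowest parental library in CPM, at 615, against 640.1 and 645. In FPKM it was the highest, at 480.6 against 397.24 and 372.03, and the cause was not tested. In the parental libraries RRM2 was highest, at 417 ± 56.8 FPKM, followed by TK1 at 366 ± 48.3, TYMS at 236 ± 10.9 and RRM1 at 80.5 ± 3.69 FPKM (SD, n = 3). UMPS at 31.5 ± 4.72, RRM2B at 28.8 ± 4.0 and TYMP at 24.2 ± 1.62 FPKM followed, then UPP1 at 19.8 ± 1.67 and DPYD at 1.24 ± 0.147 FPKM. The ranges of RRM2 and TK1 overlapped, as did those of UMPS with RRM2B and of RRM2B with TYMP, and the other neighbours in the order had separate ranges. In the resistant libraries UPP1 took place 5, at 81.8 ± 2.80 FPKM, behind RRM1 at 93.0 ± 2.60 FPKM. Below them lay TYMP at 29.6 ± 2.29, UMPS at 22.2 ± 1.46, RRM2B at 22.0 ± 0.558 and DPYD at 1.61 ± 0.219 FPKM. RRM2 at 363 ± 22.3 and TK1 at 339 ± 18.1 FPKM again overlapped at the top, and so did UMPS and RRM2B.

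On this scale RRM2B made up 7.44%, 4.82% and 7.52% of the summed small subunit FPKM in the parental and 5.73%, 5.38% and 6.04% in the resistant libraries. Parental replicate 2, with the highest RRM2 FPKM of all libraries, had the lowest share of all. The groups therefore overlapped here, unlike in the count ratio. The FPKM ratio of TYMS to TK1 also overlapped between the groups. RRM2 per RRM1 on FPKM was 5.16 ± 0.463 in the parental and 3.91 ± 0.206 in the resistant libraries (SD, n = 3).

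The rest of the pathway was described with 8 lists of 116 distinct symbols, of which 111 were tested. In all 21 were higher, 55 lower and 35 not past the threshold, a median log2 fold change of -0.12 against 0.02 over all tested genes. These were 18.9% higher and 49.5% lower, against 27.3% and 26.5% of all tested genes, the background for each list below too. Without the 9 genes above 19 were higher, 52 lower and 31 not past the threshold. With library sizes alone 33 were higher and 43 lower, where 5933 of all 16605 tested genes were higher and 3146 lower. Under that scaling the E2F and S-phase list had 9 higher and 9 lower, the p53 list 13 and 2 and the thymidylate list 3 and 7. Purine synthesis had 0 and 5 and uracil removal 1 and 4, against the TMM counts below. List counts on FPKM below have another background. There 3508 to 3528 of 14655 genes kept by the filter were higher and 2594 to 2611 lower. Without a filter 3269 of 31456 were higher and 2224 lower.

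**Figure D4:**
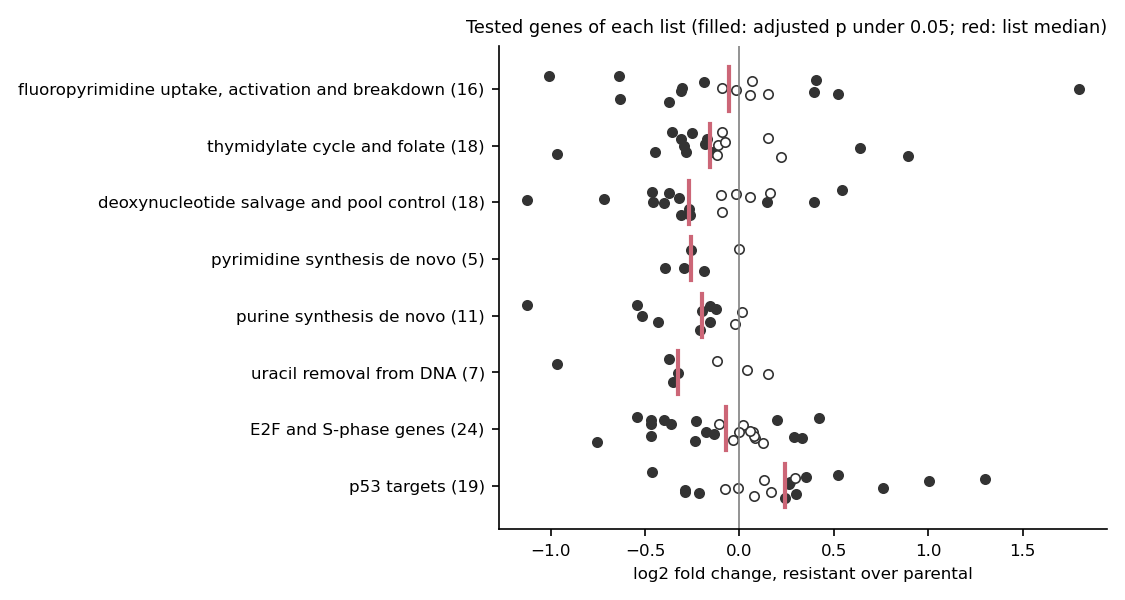
Log2 fold change, resistant over parental (horizontal axis), of each tested gene in 8 pathway lists (number tested in brackets), filled where the adjusted p was under 0.05, with the list median as a red line. In this TMM fit the lists of pyrimidine and purine synthesis and of uracil removal hold no gene called higher (uracil removal holds 1 under 5 of the alternatives named in the text), and the p53 list has a median of 0.24.

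Among genes of fluoropyrimidine uptake, activation and breakdown 4 of 16 tested were higher, 7 lower and 5 not past the threshold, with a median log2 fold change of -0.05. With library sizes alone 5 were higher and 6 lower, with a median of 0.04, where that of all tested genes was 0.11. On FPKM 4 to 5 were higher and 7 lower, with a median of -0.015. The nucleoside transporter genes SLC29A2 and SLC29A1 fell 2.01-fold and 1.24-fold, SLC29A2 from 50.8 ± 3.03 to 25.3 ± 0.397 CPM (SD, n = 3). The uridine-cytidine kinase genes, whose enzymes phosphorylate fluorouridine, went both ways. UCK2 fell 1.55-fold from 107 ± 5.71 to 69.1 ± 1.41 CPM and UCKL1 fell 1.55-fold, while UCK1 rose 1.32-fold from 19.7 ± 0.788 to 26.1 ± 1.34 CPM. CES2, a carboxylesterase gene, rose 1.43-fold, and TK2, the mitochondrial thymidine kinase gene, rose 1.31-fold. In edgeR these 7 genes had adjusted p-values of 6.2e-04 (SLC29A1) or lower.

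In the thymidylate cycle and folate list 2 of 18 tested genes were higher, 10 lower and 6 not past the threshold, with a median of -0.16. On FPKM 2 were higher and 4 to 5 lower, with a median of -0.09. GGH, which removes glutamates from folates, rose 1.86-fold from 47.5 ± 1.29 to 88.3 ± 1.17 CPM (SD, n = 3). SLC19A1, the reduced folate carrier gene, fell 1.36-fold, MTHFS, which acts on folinic acid, fell 1.95-fold, and DCTD, which makes dUMP from dCMP, fell 1.22-fold. In edgeR these 4 genes had adjusted p-values of 1.9e-04 (DCTD) or lower.

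Among genes of deoxynucleotide salvage and pool control 3 of 18 tested were higher, 10 lower and 5 not past the threshold, with a median of -0.27. SAMHD1, which degrades deoxynucleoside triphosphates, rose 1.46-fold from 46.6 ± 0.751 to 68.0 ± 1.26 CPM (SD, n = 3). NT5C, a deoxyribonucleotidase gene, fell 1.65-fold from 38.7 ± 1.19 to 23.5 ± 0.284 CPM, and DCTPP1, a dCTP pyrophosphatase gene, fell 1.20-fold. In edgeR these 3 genes had adjusted p-values of 5.3e-04 (DCTPP1) or lower. DCK, the deoxycytidine kinase gene, had 65.0 ± 9.77 and 72.6 ± 9.60 CPM with overlapping groups (edgeR adjusted p = 0.38). NME2 fell 1.37-fold (edgeR adjusted p = 0.0064, limma adjusted p = 0.066 on unfiltered FPKM), which is uncertain because NME1 and NME2 are close copies that share a read-through transcript.

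In pyrimidine synthesis 4 of 5 tested genes, UMPS among them, were lower and 0 higher, with a median of -0.26. CAD, which carries its first steps, fell 1.22-fold from 262 ± 15.6 to 214 ± 14.4 CPM (SD, n = 3), DHODH fell 1.31-fold and CTPS1, a CTP synthase gene, fell 1.20-fold, with edgeR adjusted p-values of 0.0013 (CAD) or lower. CAD did not pass on unfiltered FPKM (limma adjusted p = 0.090). In purine synthesis 9 of 11 tested genes were lower and 0 higher, with a median of -0.20. On FPKM 4 to 5 of them were lower, with a median of -0.13, and without resistant replicate 1 6 were lower in edgeR. IMPDH2, the IMP dehydrogenase gene that leads to guanine nucleotides, fell 2.18-fold from 446 ± 27.3 to 205 ± 3.73 CPM, and GART, PFAS and IMPDH1 fell 1.46-fold, 1.43-fold and 1.35-fold. In edgeR these 4 genes had adjusted p-values of 5.6e-05 (IMPDH1) or lower, and IMPDH1 did not pass on unfiltered FPKM (limma adjusted p = 0.063).

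Enzymes that remove uracil or fluorouracil from DNA, or act after its removal, had 4 of 7 tested genes lower and 0 higher, with a median of -0.32 (-0.17 to -0.18 on FPKM, with 3 lower). XRCC1, a scaffold gene of base excision repair, had 34.5 ± 4.81 and 38.5 ± 1.17 CPM (SD, n = 3; edgeR adjusted p = 0.16). It was called higher without parental replicate 2 (edgeR adjusted p = 0.0011), with library sizes alone, with a replicate block and in both FPKM fits with a filter on low values (adjusted p from 0.027 to 0.033 in edgeR or limma). MBD4, a glycosylase gene, fell 1.95-fold from 21.8 ± 1.92 to 11.1 ± 0.405 CPM (SD, n = 3). UNG, the main uracil glycosylase gene, fell 1.28-fold from 160 ± 3.09 to 125 ± 3.48 CPM, and APEX1, the abasic endonuclease gene, fell 1.29-fold. TDG, the thymine glycosylase gene, fell 1.25-fold in edgeR (adjusted p = 8.0e-04), but not past the threshold on FPKM (limma adjusted p from 0.061 to 0.11).

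The E2F and S-phase list, which shares no gene with the 9, had 4 of 24 tested genes higher, 11 lower and 9 not past the threshold, with a median of -0.07. The list median was 0.02 with library sizes alone and 0.03 on FPKM. The median of all tested genes also moved, from 0.02 with TMM to 0.11 with library sizes alone. On FPKM it was 0.02 to 0.05. Without parental replicate 2 the list median was -0.04 with 6 genes higher. E2F7, a repressor gene of the E2F family, rose 1.34-fold from 60.6 ± 3.14 to 81.0 ± 2.05 CPM (SD, n = 3). CCNE1, the cyclin E1 gene, rose 1.22-fold and RB1, the retinoblastoma gene, rose 1.26-fold. The replication licensing gene CDT1 rose from 103 ± 3.69 to 118 ± 2.86 CPM (SD, n = 3). In edgeR these 4 genes had adjusted p-values of 0.0032 (RB1) or lower, and each kept its direction and call in the 16 alternatives. CCNA2, the cyclin A2 gene, fell 1.69-fold from 177 ± 3.83 to 105 ± 6.24 CPM (SD, n = 3). CCNF, whose product targets the RRM2 protein for degradation, fell 1.46-fold, the repressor gene E2F8 fell 1.38-fold and the helicase gene MCM5 fell 1.38-fold. In edgeR the 4 named genes that fell had adjusted p-values of 2.3e-05 (MCM5) or lower, and MCM5 did not pass on unfiltered FPKM (limma adjusted p = 0.058). E2F1 had 46.2 ± 0.568 and 47.9 ± 1.55 CPM (edgeR adjusted p = 0.39) and the replication clamp gene PCNA 315 ± 7.30 and 334 ± 12.7 CPM (edgeR adjusted p = 0.13). Both passed the threshold with library sizes alone, at edgeR adjusted p-values of 0.027 and 0.0049, and PCNA also without parental replicate 2 and on filtered FPKM. In bulk RNA fewer cells in S phase and less RNA per cell cannot be told apart, and the part of the cell cycle in the TYMS, TK1 and RRM2 values was not tested.

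Targets of p53, the list that holds RRM2B, had 9 of 19 tested genes higher, 4 lower and 6 not past the threshold, with a median of 0.24. GDF15, a stress cytokine gene, rose 2.46-fold from 62.4 ± 2.16 to 154 ± 4.31 CPM (SD, n = 3). SESN2, ZMAT3 and SESN1 rose 2.0-fold, 1.69-fold and 1.43-fold, and CDKN1A, the p21 gene, rose 1.20-fold from 208 ± 2.84 to 250 ± 4.29 CPM. The 4 that fell were RRM2B, CCNG1, FAS and TP53I3, and CCNG1 fell 1.22-fold. FAS and TP53I3 lost their calls with library sizes alone (edgeR adjusted p = 0.12 and 0.091), and on FPKM. TP53I3 also lost its call in DESeq2 (adjusted p = 0.064), without parental replicate 3 (edgeR adjusted p = 0.053) and without resistant replicate 3 (edgeR adjusted p = 0.074). The edgeR adjusted p-values of GDF15, SESN2, ZMAT3, SESN1, CDKN1A and CCNG1 were 5.6e-04 (CCNG1) or lower. RRM2B thus went against the direction of the larger number of list members that were called.

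The genes nearest in pattern were taken over the 6 libraries by the root mean square difference of mean-centred log2 CPM, among 11625 tested genes with a symbol and a mean of at least 5 CPM. For UPP1 these included ADM2 and TNFRSF6B, at differences of 0.05 and 0.06. For TYMS they were CNOT3, EXOC4 and PPM1G, at 0.01, 0.02 and 0.02, and for RRM2B they were RNF141, DPY19L4 and FAM92A, at 0.03 each. With only 6 libraries in 2 groups this likeness is set largely by the difference between the groups, and it is given as a description.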

How the data were processed

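The authors deposited whole-number read counts for each gene, not normalized, and the second table holds the authors' normalized values, taken here as FPKM from the values since its header names no unit. Aligner, counter, annotation and strand setting: not given in the sources used here. In the labels the organism is given as mouse, with mouse builds in the submitters' processing notes, but 30616 of 31456 rows carry human identifiers; the mouse reference was not used, so no coordinates or sequences are given. A SMARTER mRNA-Seq kit was used on total RNA, per the labels' protocols.

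Groups and replicate numbers came from the titles. The test was edgeR 4.0.16 (R 4.3.3) on the counts, with TMM, filterByExpr and the robust quasi-likelihood fit, two-sided, 3 against 3 libraries, Benjamini-Hochberg over all 16605 tested genes, threshold 0.05. The SE is the log2 fold change divided by the root of F. DESeq2 1.42.0 and limma 3.58.1 (log2 of FPKM plus a pseudocount of 1 or 0.1, mean FPKM of at least 1 or no filter) were alternatives. The edgeR fit was also run on simulated counts with the same spread for every gene and no outlying library. These held no change as small as those of RRM1, UMPS and TYMS, so they do not bear on such calls. A log2 difference on FPKM is on the log2(value + pseudocount) scale.

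The 9 genes and the lists were chosen with earlier results of these data known. The text names, beside them, up to 4 genes per list with the smallest adjusted p, tested overlapping genes and the 3 nearest patterns of some genes. SLC29A1, UCK1, CES2, DCTD, DCK, NME2, E2F1, E2F7, CCNE1, CDT1, RB1, XRCC1, PCNA, CDKN1A, CCNG1, FAS and TP53I3 were chosen after their values were seen. UPP2, ADSS2 and PECAM1 have no row under those symbols and were not analysed here. For a symbol with several rows, the one with most reads was used in lists. Some genes that this rule names are not reported here.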

Additional observations from a re-analysis of the deposited data

How the results depend on the processing

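The 16 alternatives were other normalizations, filters and models, FPKM in place of counts, a replicate block and leaving out each library. TYMS, UPP1 and DPYD kept their direction and their side of the threshold in all 16. UMPS, RRM1 and RRM2B kept their calls in 15. RRM2 passed in 3 and TYMP in 2, and TK1 in none, with a log2 fold change of 0.0019 with library sizes alone. Of the 9 genes 1 was higher with no filter, against 2. Leaving out a library gave 2 higher and 3 to 4 lower calls among them, 20 to 25 higher and 49 to 56 lower in the lists, and 3869 to 4597 higher and 3797 to 4612 lower over all genes, against 4534 and 4399. On FPKM 2594 genes were lower with a pseudocount of 1, 2611 with 0.1 and 2224 with no filter; the cause was not tested. In the lists 33 were higher with library sizes alone, where 5933 were over all genes, and 32 were lower on FPKM with no filter. ENOSF1 turned to 0.059 with library sizes alone. The second SCO2 row ran from -0.10 (without resistant replicate 3) to 0.78 (without parental replicate 1), and was -0.03 without parental replicate 2. Of 831 refits of 52 other genes, 792 kept direction and call.

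The replicate number was not shown to pair the libraries. Same-numbered libraries correlated at 0.07, 0.14 and 0.01 in their deviations from the group means, and parental replicate 3 correlated best with resistant replicate 1. With the replicate block 5010 genes were higher and 4963 lower, and among the 9 genes 2 were higher and 4 lower. The ratio differences kept their sign on FPKM. There RRM2B to RRM2 was -0.19 (exact permutation p = 0.40) and TYMS to TK1 -0.13 (exact permutation p = 0.20). The other pairs kept an exact permutation p of 0.10. Leaving out a library could not change a sign, since the groups did not overlap. The block comparison could not either, since its mean equals the difference of the group means. DPYD, at 91 to 142 counts per library, is the gene most limited by depth.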
